A study of Drosophila melanogaster with 24 samples.

Results

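The dpr and DIP genes of Drosophila encode a network of cell surface recognition proteins. They were taken as the rows of the count table whose symbol is dpr followed by a number or begins with DIP-, which gave 32 of 15610 genes, 21 dpr genes and 11 DIP genes. RNA was measured in clock neurons sorted from brains of male flies at ZT14, in 24 libraries that form 8 groups of 3. The mutant genotypes, named Drp1-mut, Marf-mut and Opa1-mut after the targeted gene, had CLK856-Gal4 driving UAS-Cas9, UAS-eGFP and a UAS-3XgRNA transgene against Drp1 (the mitochondrial fission GTPase), Marf (the mitofusin of the outer membrane) or Opa1 (the fusion GTPase of the inner membrane). The Cas9 flies were the controls and carried CLK856-Gal4, UAS-Cas9 and UAS-eGFP without guides, so all groups expressed Cas9 and eGFP in the same neurons. Each genotype was sampled old, at about 35 days, and young, at about 15 days.

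The guides were thus expressed where the CLK856 driver is active, and each library was a pool of about 1000 GFP-positive cells, so that a level is an average over clock neurons of different kinds. All 3 pools of a group came from 1 cell suspension of 80 to 100 brains. Their spread, and every p-value over libraries, therefore measures variation between pools of the same suspension and not between separate sets of flies. In such pools, fewer cells of a type and less RNA per cell cannot be told apart.

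Dpr proteins and their partners, the DIPs (Dpr-interacting proteins), belong to the immunoglobulin superfamily and bind each other across cell contacts. Different neurons express different combinations of them, and matched pairs are known to take part in choosing synaptic partners, in placing terminals within a layer and in the survival of some neurons during development. The founding gene, dpr1, takes its name (defective proboscis extension response) from a feeding response to salt. DIP-alpha is an established partner of dpr6 and dpr10, DIP-gamma of dpr11, and DIP-delta of dpr12. Clock neurons time daily behaviour and include lateral and dorsal groups that contact one another and other brain regions.

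Libraries held 684175 to 2889269 UMIs (unique molecular identifiers, each marking 1 captured molecule), with 684175 to 1843669 in old and 1315343 to 2889269 in young libraries. Levels below are CPM, the UMI counts of a gene relative to the total of its library, scaled with TMM factors. Smart-seq3 tags the 5′ end of a cDNA, so 1 UMI stands for 1 molecule and levels of different genes were compared without dividing by length. A gene is said to have passed, or to have been called, where its p in edgeR's quasi-likelihood test, adjusted over all genes tested with the Benjamini-Hochberg method, was under 0.05. The targeted transcripts, which guide-made deletions need not remove, were lower in old Drp1-mut (Drp1, log2 fold change -0.89, adjusted p = 0.00624) and in old Opa1-mut (Opa1, -0.68, adjusted p = 0.000364), while Marf did not pass in old Marf-mut (-0.27, adjusted p = 0.228) and no target passed in young mutants (-0.53 for Drp1, -0.24 for Marf and -0.46 for Opa1). The labelled cell type was checked against its markers, and the 8 clock neuron markers (tim, per, Clk, cyc, vri, Pdp1, cry, Pdf) all had UMIs, with a summed level of 10003 to 23151 CPM in old and 8175 to 18492 CPM in young libraries. Young Drp1-mut replicate 3, the deepest library, stood farthest from the others of its group: its counts differed from theirs by a chi-square of 20.8 and 16.0 per gene, where other pairs of libraries within a group had at most 10.8. Its photoreceptor and fat body and hemocyte markers summed to 213 and 155 CPM, against 87.6 and 42.2 CPM in replicate 1 and 99.7 and 18.6 CPM in replicate 2. Old Drp1-mut replicate 3 was the shallowest library. Results that rest on either are given with and without it.

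Transcripts of all 32 genes were detected, 31 of them in every library. Together they made up 0.31% to 0.338% of the UMIs in old libraries and 0.333% to 0.397% in young libraries. The genes lay on chromosome arms 2L (9 genes), 2R (5), 3L (4) and 3R (8), on chromosome 4 (1) and on X (5). Levels spanned a wide range, and a few dpr genes stood above the others.

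dpr21 had the highest mean level, 593 CPM, with a lowest library at 497 CPM, a median of 593 CPM and a highest at 685 CPM over 24 libraries. Next came dpr7 at 354 CPM (lowest 318, median 347, highest 435), the only gene of the set on chromosome 4. dpr12 averaged 273 CPM (lowest 208, median 271, highest 340). The group means of these 3 genes kept that order without overlap, and no library of dpr7 reached the lowest library of dpr21. The following 3 genes lay closer together, dpr13 with a mean of 186 CPM (146 to 232), dpr19 with 152 CPM (highest library 190) and dpr9 with 143 CPM (104 to 178), and their ranges overlapped. At the other end stood 3 DIP genes, DIP-eta with a mean of 17.5 CPM, DIP-iota with 6.13 CPM and DIP-alpha with 5.52 CPM.

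**Figure D1:**
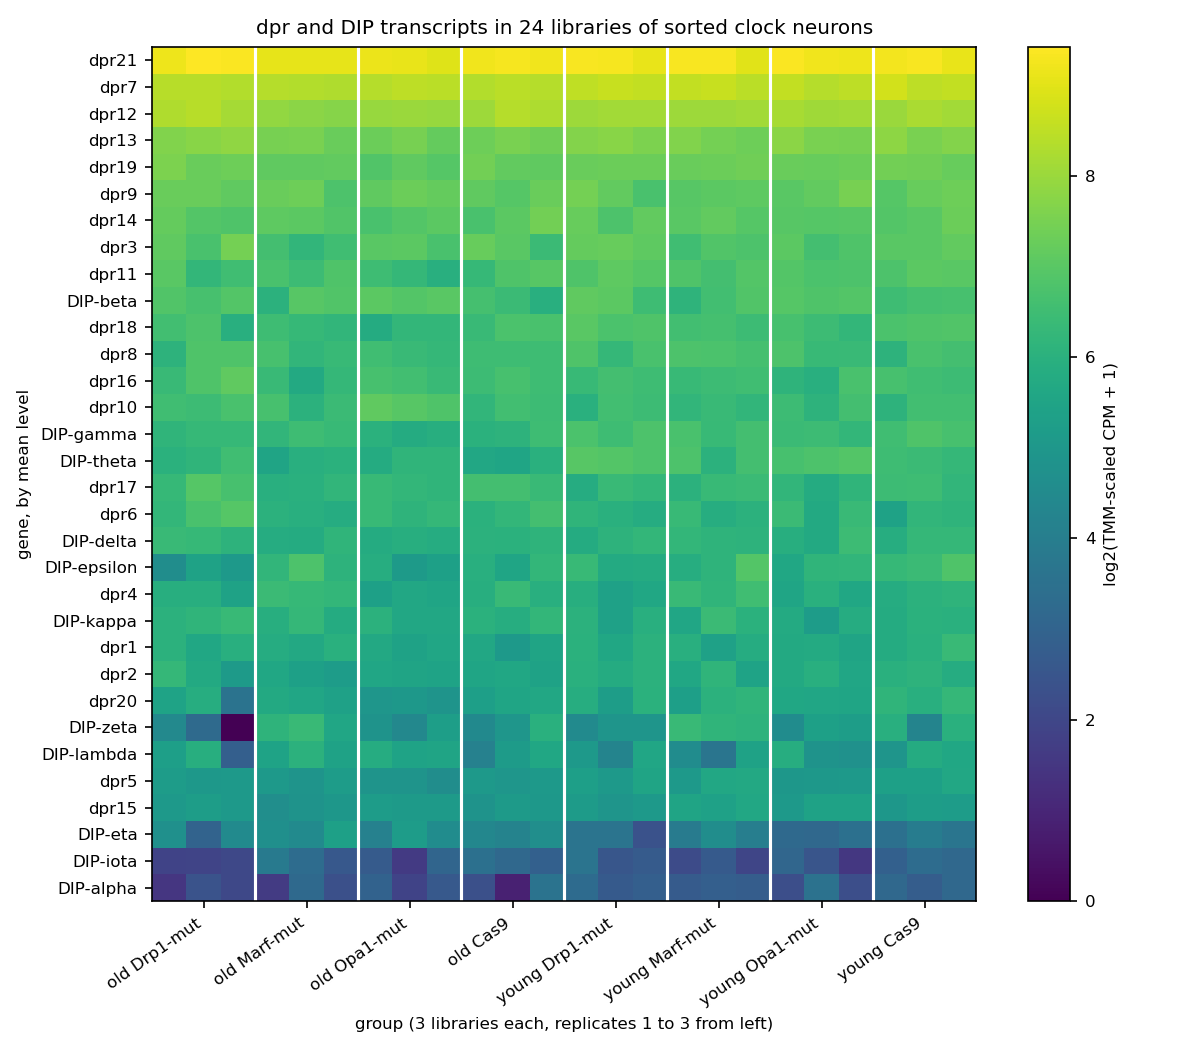
Level of each dpr and DIP gene (rows, ordered by mean level) in each of 24 libraries (columns, 3 per group), as log2(TMM-scaled CPM + 1) in colour. dpr21, dpr7 and dpr12 form the brightest rows and DIP-iota and DIP-alpha the darkest, in old and in young libraries, and the single cell at 0 is DIP-zeta in old Drp1-mut replicate 3.

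Of the 6 most abundant genes, 5 passed no test between 2 groups. For dpr21, the log2 fold changes over 10 such tests ran between -0.20 and 0.11 with a lowest adjusted p of 0.127. For dpr7 they ran between -0.21 and 0.03, with a lowest adjusted p of 0.352, and for dpr9 between -0.12 and 0.14, with a lowest adjusted p of 0.69. dpr13 lay between -0.28 and 0.35 (lowest adjusted p 0.106) and dpr19 between -0.31 and 0.19 (0.0692). The widest range in the set was that of DIP-zeta, -1.69 to 0.82. dpr12 was the one gene of these 6 that passed a test, in old Marf-mut.

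The established partners were present at unequal levels. DIP-alpha was near the limit of detection, and its exons overlap CG2875 on the same strand and ppk8 on the other, which had 498 and 185 UMIs over all libraries where DIP-alpha had 210, so its level is uncertain. Its libraries had a lowest value of 0.803 CPM, a median of 5.50 CPM and a highest of 11 CPM, where 3 UMIs in a library correspond to 0.974 to 4.70 CPM. Its partners dpr10 and dpr6 had medians of 87.7 and 70.2 CPM. DIP-gamma, whose pairing with dpr11 is known from photoreceptors and their targets in the optic lobe, had a median of 82.5 CPM and dpr11 a median of 111 CPM. DIP-delta, which pairs with dpr12 in the mushroom body, had a median of 67.5 CPM, with group means between 56.5 ± 2.79 CPM in old Opa1-mut and 76.0 ± 7.75 CPM in old Drp1-mut (SD, n = 3 each), against a median of 271 CPM for dpr12.

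Across groups, DIP-alpha averaged 3.07, 4.80, 4.93 and 5.26 CPM in old Drp1-mut, Marf-mut, Opa1-mut and Cas9 and 6.83, 5.87, 6.09 and 7.33 CPM in the young groups in the same order, with SDs of up to 5.25 CPM over 3 libraries. dpr6 averaged 99.8, 60.8, 75.5 and 78.7 CPM in the old groups and 62.9, 67.9, 73.2 and 61.1 CPM in the young ones (SDs of up to 23 CPM). Neither DIP-alpha nor dpr6 passed in any test. DIP-gamma averaged 76.2, 81.2, 59.3 and 73.2 CPM in the old groups and 102, 93.5, 82.5 and 102 CPM in the young ones, and dpr11 98.6, 101, 75.9 and 106 CPM in the old groups and 123, 110, 111 and 124 CPM in the young ones. The lowest group of both partners was old Opa1-mut. DIP-delta averaged 76.0, 60.3, 56.5 and 65.9 CPM in the old groups and 65.8, 70.2, 65.6 and 69.8 CPM in the young ones, and it too passed in no test.

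Age was compared first on counts summed over the 3 libraries of a suspension, which gives 4 old and 4 young suspensions, 1 of each genotype at each age, in a fit with age and genotype. DIP-theta, DIP-gamma and dpr20 were lower and DIP-eta was higher in old clock neurons. These 4 of 32 genes, 12.5%, passed at an adjusted p under 0.05, where 3.55% of the 8195 genes tested did. In the higher direction it was 1 gene, against 2.82% of all genes, and in the lower direction 3 genes, against 0.732%. At an unadjusted p under 0.05 there were 11 genes, 34.4%, against 17.1% of all genes. The median log2 fold change of the 32 genes was -0.08. DESeq2 called 3 of the 32, against 3.57% of genes. When the Drp1-mut or the Marf-mut suspension of either age was left out, 1 gene passed each time, DIP-theta. With young Drp1-mut replicate 3 left out of its sum 2 genes passed, DIP-theta and DIP-eta, and with old Drp1-mut replicate 3 left out 3 passed, these and DIP-gamma. The share of all genes called under these omissions is not given here, and a fit without a suspension has fewer residual degrees of freedom. Whether the lost calls are particular to these genes therefore cannot be read from the counts. This age fit was added after the data had been seen.

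DIP-theta, a DIP that can bind several dpr proteins, was 73.3, 56.9, 67.0 and 52.2 CPM in the old suspensions of Drp1-mut, Marf-mut, Opa1-mut and Cas9, against 117, 92.9, 112 and 82.3 CPM in the young suspensions of the same genotypes. Every old value lay below every young one. The log2 fold change was -0.68 (SE 0.0813, adjusted p = 0.00439), which is 0.626 of the young level, and it passed in 8 of 8 fits that left out a suspension (adjusted p between 0.00245 and 0.0404). An exon of DIP-theta overlaps lncRNA:CR44822 on the same strand, which itself had 10 UMIs over all libraries.

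DIP-eta, a close relative of DIP-theta, moved the other way, and no old suspension fell below any young one. It was 19.4, 29.5, 25.3 and 20.5 CPM in old Drp1-mut, Marf-mut, Opa1-mut and Cas9 suspensions, against 7.79, 17.2, 8.93 and 11.9 CPM in the young ones. Its counts were low, 621 UMIs over all libraries, where DIP-theta had 3072. The log2 fold change was 1.09 (SE 0.174, adjusted p = 0.0135), a level 2.12 times that of young, and it passed in 4 of 8 fits that left out a suspension, but not without the Drp1-mut or the Marf-mut suspension of either age (adjusted p between 0.0523 and 0.06). DIP-eta (chromosome 2L, 5601723 to 5617946 in dm6) and DIP-theta (2L, 5626291 to 5658560) are neighbours on the minus strand, 8344 bases apart, and 2 other annotated genes touch the stretch between them.

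dpr20 (chromosome 3L, 852720 to 857248, minus strand) was 39.6, 45.9, 30.3 and 44.9 CPM in old suspensions of Drp1-mut, Marf-mut, Opa1-mut and Cas9, against 55.7, 60.8, 46.9 and 69.6 CPM in the young ones, with no overlap between ages. Its log2 fold change was -0.52 (SE 0.0968, adjusted p = 0.022). DIP-gamma was 75.8, 81.3, 59.9 and 73.2 CPM in the old suspensions and 105, 94.3, 82.7 and 102 CPM in the young ones, again without overlap, and its log2 fold change was -0.38 (SE 0.0852, adjusted p = 0.0458). Neither was as steady as DIP-theta: dpr20 passed only without the old or the young Opa1-mut suspension (adjusted p up to 0.121 in the other 6 fits), and DIP-gamma passed in 0 of 8 (adjusted p between 0.0592 and 0.167) and not with DESeq2. DIP-gamma also lies over CG11828 on the opposite strand, and whether counting used strand is not given in the sources used here. CG11828 itself had 13 UMIs over all libraries, where DIP-gamma had 3153.

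**Figure D2:**
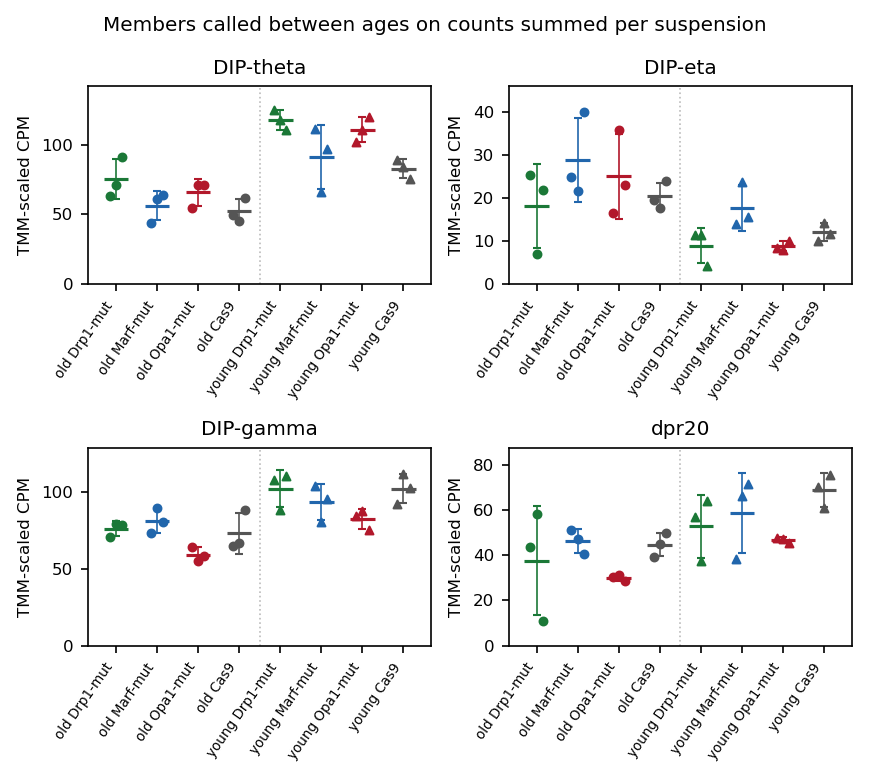
TMM-scaled CPM of DIP-theta, DIP-eta, DIP-gamma and dpr20 in every library (circles, old; triangles, young), with the mean (line) and SD (bar) of 3 libraries per group. For DIP-theta the old libraries reach 90.9 CPM and the young ones 66.0 CPM at their lowest, so single libraries overlap where the sums per suspension do not.

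Among genes that did not pass, DIP-epsilon had 31.7, 83, 44.1 and 59.7 CPM in the old suspensions of Drp1-mut, Marf-mut, Opa1-mut and Cas9, against 59.6, 89.6, 64.8 and 94.2 CPM in the young ones (log2 fold change -0.51, adjusted p = 0.0607). Of all tested genes 12% were higher and 14.1% were lower in old than in young in every genotype, and of the 32 genes 1 was higher, DIP-eta, and 12 were lower, 37.5%. Old and young suspensions did not overlap for 7 genes, 21.9%, where 9.09% of all tested genes did not overlap. Besides the 4 genes that passed, these were dpr7, dpr11 and DIP-alpha, with log2 fold changes of -0.14, -0.27 and -0.52. Depth differed with age, as given above, and so did other transcripts: 4 of 12 markers of other neurons passed (Gad1 0.81 and Ilp5 2.70 higher, Tbh -0.51 and Vmat -0.46 lower), 1 of 14 markers of clock neuron subsets (ITP, 0.72) and 1 of 10 glial markers (nrv2, 0.43). The summed level of the other neuron markers was 2951 to 5155 CPM in old and 3660 to 5927 CPM in young libraries, that of the subset markers 22309 to 42156 CPM in old and 21739 to 37370 CPM in young libraries, and that of the glial markers 473 to 1203 CPM in old and 498 to 769 CPM in young libraries. The part of any of these in the age differences was not tested.

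Within single genotypes, over libraries, the largest number of genes passed between ages in Opa1-mut. DIP-eta and dpr10 rose, and DIP-theta, dpr11, dpr20 and DIP-gamma fell, in old against young Opa1-mut, 6 of 30 genes tested, 20%, where 12.4% of all tested genes passed (7.62% higher and 4.78% lower). DESeq2 called 4 members, against 8.55% of genes. These libraries are also part of the sums above. DIP-theta had 54.8, 71.1 and 71.0 CPM in old Opa1-mut libraries and 102, 111 and 119 CPM in young ones, a log2 fold change of -0.76 (SE 0.131, adjusted p = 0.000863). DIP-eta had 16.4, 35.9 and 23.0 CPM in old and 8.42, 7.99 and 10.1 CPM in young libraries, a log2 fold change of 1.48 (SE 0.321, adjusted p = 0.00496). In neither gene did old and young libraries overlap. For this and the later comparisons of libraries, the share of all genes without overlap is not given. A gene described because it passed gains no separate support from a lack of overlap in the same libraries. Without old Opa1-mut replicate 2, the library with 35.9 CPM, DIP-eta no longer passed (1.15, adjusted p = 0.0539).

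The partners DIP-gamma and dpr11 both fell with age in Opa1-mut. dpr11 had 89.8, 77.2 and 60.6 CPM in old and 117, 106 and 110 CPM in young Opa1-mut libraries (log2 fold change -0.56, SE 0.139, adjusted p = 0.0119), and it did not pass without old Opa1-mut replicate 3 (-0.42, adjusted p = 0.0599). DIP-gamma had 64.4, 54.9 and 58.5 CPM in old and 84.2, 87.9 and 75.2 CPM in young libraries (log2 fold change -0.48, SE 0.132, adjusted p = 0.0213), and among fits that left out a library it passed only without replicate 3 of young or replicate 1 of old Opa1-mut (adjusted p up to 0.099 in the other 4). All old values of both genes lay below all young ones.

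dpr10 rose and dpr20 fell in the same comparison. dpr10 had 138, 125 and 112 CPM in old and 87.3, 66.6 and 96.7 CPM in young Opa1-mut libraries (log2 fold change 0.57, SE 0.138, adjusted p = 0.0102), and did not pass without old Opa1-mut replicate 1 (0.49, adjusted p = 0.0523). dpr20 had 30.2, 31.2 and 28.7 CPM in old and 47.5, 47.3 and 45.5 CPM in young libraries (log2 fold change -0.65, SE 0.169, adjusted p = 0.0165), and did not pass without old Opa1-mut replicate 3 (-0.61, adjusted p = 0.063). In old Opa1-mut 2 of 8 glial markers tested were higher (alrm, Gat), 1 of 14 subset markers was lower (VGlut) and 1 of 6 pan-neuronal markers was lower (brp) than in young Opa1-mut. Of 11 markers of other neurons Dop1R1 (-0.38) and Ilp3 (-0.63) were lower, and of 8 clock neuron markers cry (0.56) was higher and per (-0.56) lower. Summed levels of the glial, subset and pan-neuronal lists were 644 to 837, 33396 to 42156 and 2156 to 2279 CPM in old Opa1-mut, against 498 to 688, 23859 to 32411 and 2333 to 2566 CPM in young Opa1-mut. Those of the other neuron and clock neuron lists were 2988 to 4113 and 15539 to 22922 CPM in old Opa1-mut, against 3660 to 5144 and 14226 to 17924 CPM in young Opa1-mut. The part of these markers in the differences was not tested.

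In the other genotypes few genes passed between ages. In Cas9, DIP-theta was the single gene of 32, where 2.45% of all tested genes passed (0.324% lower): it had 49.6, 44.9 and 61.7 CPM in old and 88.7, 84.1 and 75.6 CPM in young libraries, without overlap (log2 fold change -0.62, SE 0.161, adjusted p = 0.0459). It fell short of the threshold in each of 6 fits that left out a library (adjusted p between 0.0611 and 0.227). Of the markers, Gad1 (1.05, of 11 for other neurons) and Clk (1.01, of 8 for clock neurons) were also higher in old Cas9. The subset list summed to 36070 to 40394 CPM in old Cas9, against 23884 to 35813 CPM in young Cas9, without overlap, while the sums of the other marker lists overlapped. The part of these markers was not tested. In Marf-mut, dpr15 was the single gene of 30, where 3.39% of all genes passed (0.763% lower), with 24.2, 27.5 and 30.5 CPM in old and 44.7, 40.7 and 49.1 CPM in young libraries (log2 fold change -0.72, SE 0.187, adjusted p = 0.0426). These dpr15 values did not overlap either, and the call was lost in each of 6 fits that left out a library (adjusted p between 0.05 and 0.194). Many markers differed with it: in old Marf-mut 3 of 9 glial markers tested were higher (alrm, Gs2, Gat), Pdf (1.24) was higher and NPF (-3.64), gl (-1.20) and VGlut (-0.69) lower of 14 subset markers, and Gad1 and Ilp3 were higher and ple lower of 12 markers of other neurons. The glial, subset and other neuron lists summed to 855 to 1076, 30416 to 32064 and 3467 to 4797 CPM in old Marf-mut, against 524 to 682, 21739 to 25460 and 4199 to 5261 CPM in young Marf-mut. The clock neuron list summed to 16398 to 20659 CPM in old Marf-mut, against 8175 to 11131 CPM in young Marf-mut. The part of these markers in the dpr15 difference was not tested.

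In Drp1-mut, 0 of 30 genes passed, where 0.705% of all genes did, and DESeq2 called 0, against 1.51% of genes. The count was also 0 without young Drp1-mut replicate 3 and without old Drp1-mut replicate 3. There 6 genes had an unadjusted p under 0.05, against 11.8% of all genes. DIP-theta had a log2 fold change of -0.63 (adjusted p = 0.149), dpr6 of 0.69 (0.149) and DIP-eta of 1.18, the last with 25.4, 7.09 and 22 CPM in old and 11.4, 11.4 and 4.22 CPM in young libraries.

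Among old mutants, Opa1-mut had the largest number of dpr and DIP genes called. In old Opa1-mut against old Cas9, dpr10 and DIP-beta rose and dpr4, dpr18 and dpr20 fell, 5 of 31 genes tested or 16.1%, where 13.2% of all tested genes passed (7.54% higher and 5.65% lower). That share is near the background, and at an unadjusted p under 0.05 there were 11 genes, 35.5%, against 25.6% of all genes. DESeq2 called 1 of the genes, against 6.67% of all genes. The median log2 fold change of the 31 genes was -0.19.

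dpr10 (chromosome 3L, 10147454 to 10186108), the partner of DIP-alpha, had 138, 125 and 112 CPM in old Opa1-mut, against 71.7, 93.1 and 86.5 CPM in old Cas9. Its log2 fold change was 0.56 (SE 0.140, adjusted p = 0.00906), and it did not pass without old Opa1-mut replicate 1 (0.48, adjusted p = 0.0624) or without old Cas9 replicate 1 (0.45, adjusted p = 0.0566). dpr10 was also under an adjusted p of 0.05 in the authors' deposited table of the comparison (0.0445), but not with DESeq2 as run here (0.55, adjusted p = 0.0568). dpr6 lies 8093 bases from dpr10 on the other strand with no annotated gene between them, and had 79.5, 69.8 and 77.3 CPM in old Opa1-mut and 63.8, 74.6 and 97.5 CPM in old Cas9, with overlapping libraries.

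DIP-beta, known from lamina neurons of the visual system and a partner of several dpr proteins, had 131, 117 and 129 CPM in old Opa1-mut and 99.3, 85.9 and 60.7 CPM in old Cas9. All mutant libraries lay above all Cas9 libraries (log2 fold change 0.60, SE 0.150, adjusted p = 0.00938), and the gene passed in each of 6 fits that left out a library. It was the 1 dpr or DIP gene called by DESeq2 as run here (adjusted p = 0.0463), but had an adjusted p of 0.0853 in the authors' deposited table and did not pass when all 24 libraries shared a fit (adjusted p = 0.0792). In young flies it had 122, 114 and 118 CPM in Opa1-mut and 89.2, 99.8 and 101 CPM in Cas9, likewise without overlap, with a log2 fold change of 0.32 that did not pass (adjusted p = 0.207).

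The 3 dpr genes that fell had lower values in each old Opa1-mut library than in any old Cas9 library. They were picked by passing in these same libraries, so this adds no separate support. dpr4 had 39.8, 49.4 and 45.4 CPM in old Opa1-mut and 58.3, 83.5 and 59.8 CPM in old Cas9 (log2 fold change -0.60, SE 0.172, adjusted p = 0.0246). dpr18 had 54.1, 75.2 and 75.2 CPM in old Opa1-mut and 82.7, 107 and 103 CPM in old Cas9 (-0.52, SE 0.157, adjusted p = 0.0307). dpr20 had 30.2, 31.2 and 28.7 CPM in old Opa1-mut and 39.4, 44.9 and 49.7 CPM in old Cas9 (-0.58, SE 0.189, adjusted p = 0.0447). Calls depended on single libraries. dpr4 did not pass without old Opa1-mut replicate 1 or 3 or old Cas9 replicate 2 (adjusted p up to 0.193), dpr18 without old Opa1-mut replicate 1 or old Cas9 replicate 2 or 3 (up to 0.165), and dpr20 passed only without old Cas9 replicate 1 (up to 0.141 otherwise). dpr4 overlaps asRNA:CR45056 on the opposite strand, and reads of the 2 could not be told apart without strand. The antisense RNA itself had 22 UMIs over all libraries, where dpr4 had 2272.

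**Figure D3:**
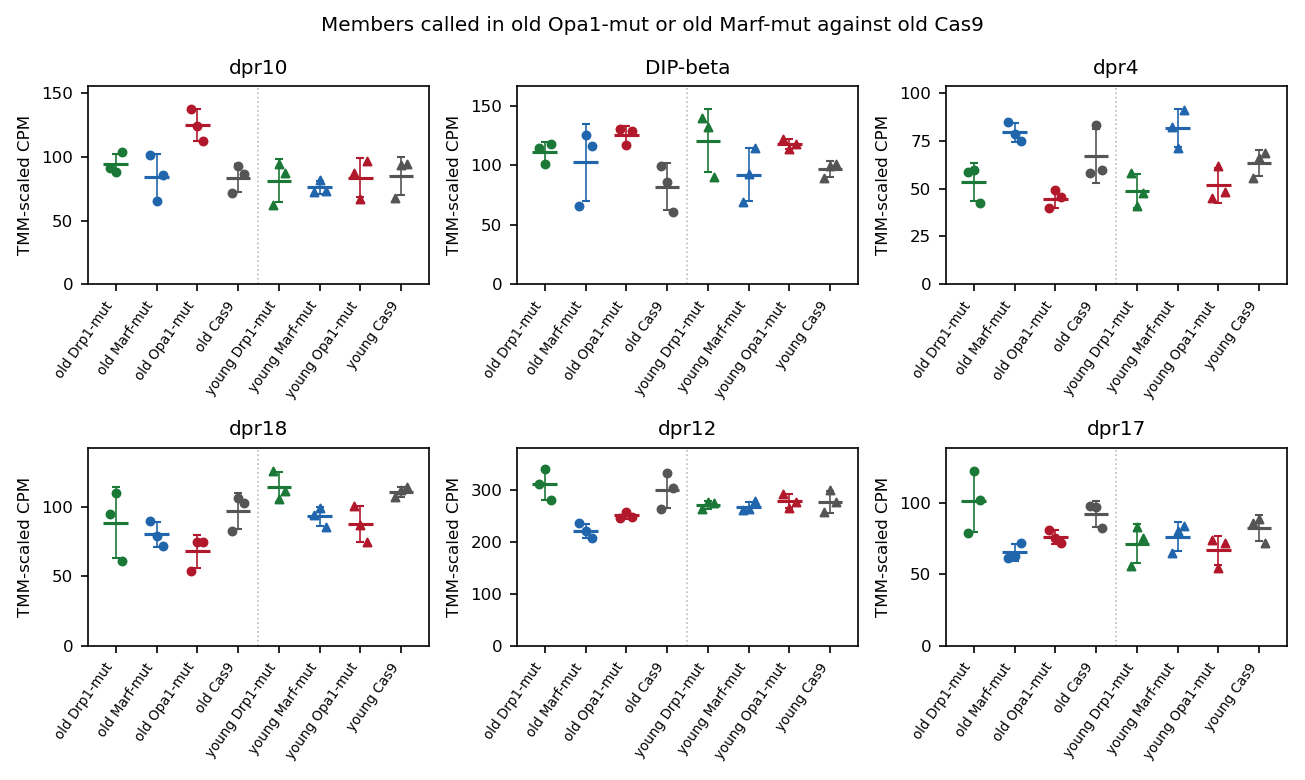
TMM-scaled CPM of the genes called in old Opa1-mut (dpr10, DIP-beta, dpr4, dpr18; the fifth, dpr20, is in the plot of age members) or in old Marf-mut (dpr12, dpr17) against old Cas9, in every library (circles, old; triangles, young), with the mean and SD of 3 libraries per group. The 3 old Opa1-mut libraries of dpr10, at 112 to 138 CPM, stand above all other libraries of that gene.

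Depth and other transcripts moved with genotype here. Old Opa1-mut libraries held 1492083, 1468850 and 1843669 UMIs, all more than the 1313809, 1286609 and 1109778 UMIs of old Cas9. In a fit that had log2 depth as a term 0 of the 5 genes passed, where DIP-beta had a log2 fold change of 0.30 and dpr10 of 0.81 (adjusted p = 0.725 and 0.0761). Calls over all genes also fell in that fit, as given in the last section. Because the depths of the groups did not overlap, the fit with depth separates depth from genotype poorly. Of 6 pan-neuronal markers 3 were lower in old Opa1-mut (para, Syt1, brp) and their summed level was 2156 to 2279 CPM in old Opa1-mut and 2538 to 2980 CPM in old Cas9. Of 14 markers of clock neuron subsets, Rh7 was higher and Hug and VGlut were lower, with sums of 33396 to 42156 CPM in old Opa1-mut and 36070 to 40394 CPM in old Cas9. The number that passed was 0 of 11 other neuron markers and 0 of 1 photoreceptor marker tested, and these lists summed to 2988 to 4113 and 69.8 to 74.0 CPM in old Opa1-mut, against 4189 to 5155 and 83.5 to 90.7 CPM in old Cas9, without overlap. The part of these markers in the dpr and DIP differences was not tested.

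dpr12 and dpr17 were lower in old Marf-mut than in old Cas9. They were 2 of 31 genes tested, 6.45%, where 4.58% of all genes passed and 2.91% passed in the lower direction. At an unadjusted p under 0.05 there were 9 genes, against 17.1% of all genes, and DESeq2 called 1, against 2.62%. dpr12, the partner of DIP-delta, had 236, 222 and 208 CPM in old Marf-mut, against 264, 332 and 304 CPM in old Cas9. The mutant libraries all lay below the Cas9 libraries, with a log2 fold change of -0.46 (SE 0.098, adjusted p = 0.00543). It passed in 5 of 6 fits that left out a library, failing without old Cas9 replicate 2 (-0.37, adjusted p = 0.0768). It also failed with log2 depth as a term (-0.30, adjusted p = 0.447). Old Marf-mut libraries held 1394517 to 1735212 UMIs, all more than the 1109778 to 1313809 of old Cas9. The fit with depth therefore separates depth from genotype poorly. In the authors' deposited table dpr12 was under an adjusted p of 0.05 as well (0.00793), the only 1 of the 32 genes listed there, and dpr17 was not (0.157). DIP-delta had 55.6, 54.3 and 71.2 CPM in old Marf-mut and 65.4, 64.2 and 68.1 CPM in old Cas9, overlapping values.

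dpr17 had 61.3, 62.6 and 71.8 CPM in old Marf-mut and 97.7, 97.1 and 81.9 CPM in old Cas9, without overlap (log2 fold change -0.52, SE 0.143, adjusted p = 0.0348), and did not pass without replicate 1 or 2 of old Marf-mut or of old Cas9 (adjusted p between 0.112 and 0.153). In young flies, dpr12 had 263, 263 and 278 CPM in Marf-mut and 257, 300 and 276 CPM in Cas9, and dpr17 had 65.0, 79.9 and 83.9 CPM in Marf-mut and 86.0, 88.7 and 72.0 CPM in Cas9, both with overlap. The difference between the Marf-mut effects of the 2 ages was tested for each gene as an interaction, and for dpr12 it was -0.43 with an adjusted p of 0.292. In old Marf-mut, 3 of 14 subset markers were lower (NPF, VGlut, gl), with sums of 30416 to 32064 CPM in old Marf-mut and 36070 to 40394 CPM in old Cas9, and 2 of 8 clock neuron markers were lower (Pdp1, tim), with sums of 16398 to 20659 CPM in old Marf-mut and 13757 to 15690 CPM in old Cas9. Arr2 (2.48, of 2 photoreceptor markers tested) and Indy (1.43, of 8 glial markers) were higher, and the photoreceptor and glial lists summed to 107 to 137 and 855 to 1076 CPM in old Marf-mut, against 83.5 to 90.7 and 473 to 800 CPM in old Cas9, without overlap. Whether these bear on dpr12 and dpr17 was not tested.

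**Figure D4:**
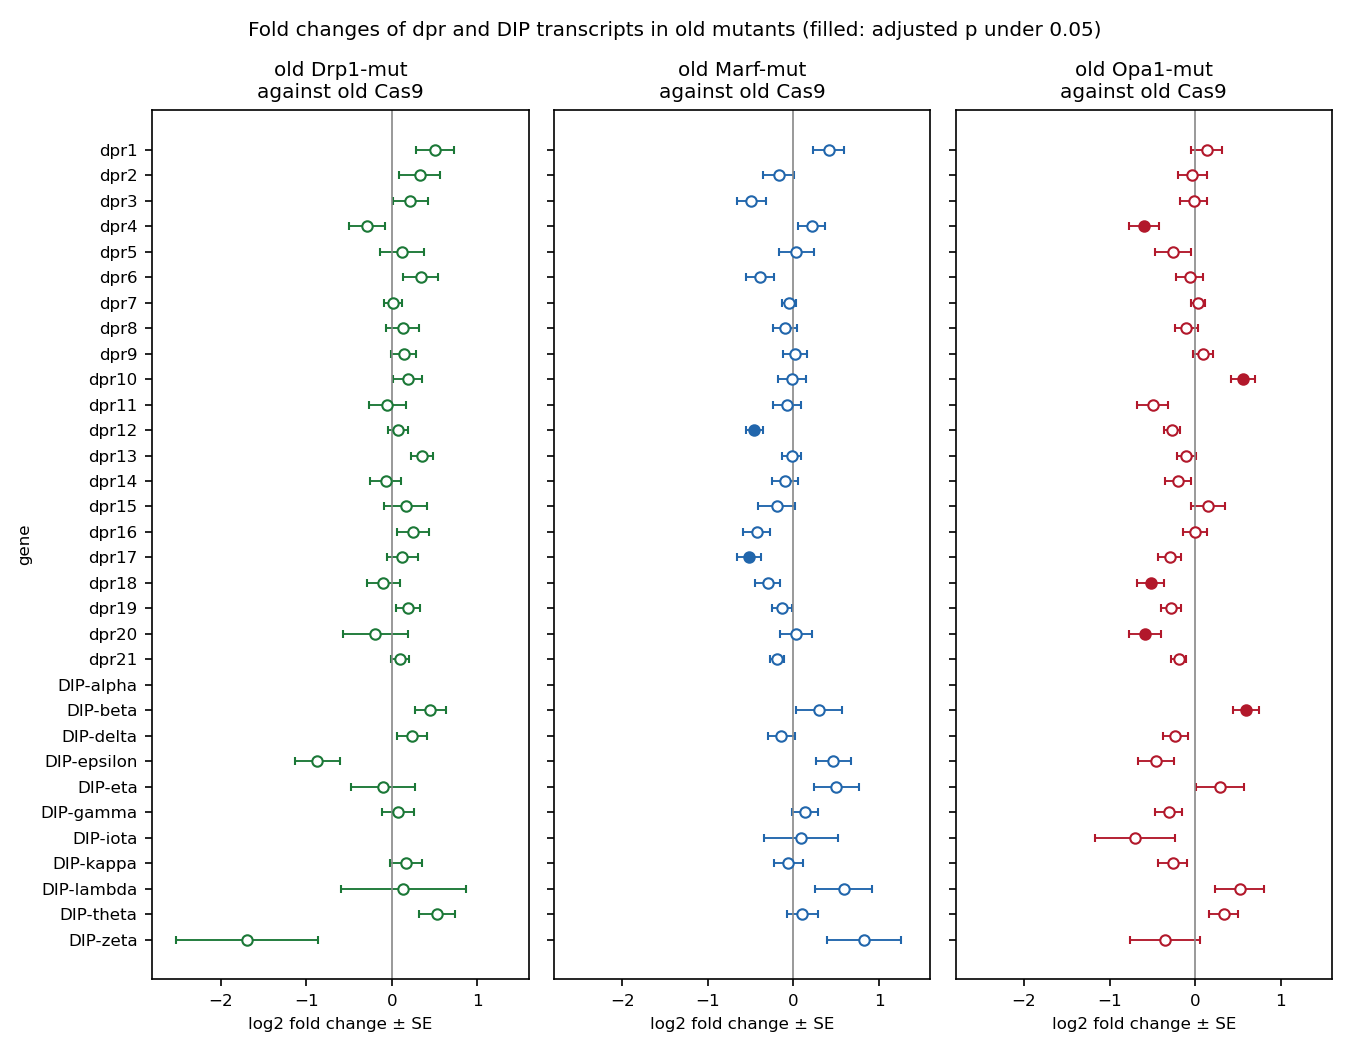
Log2 fold change with its SE of each tested dpr and DIP gene in old Drp1-mut, old Marf-mut and old Opa1-mut against old Cas9, filled where the adjusted p was under 0.05. There are 0 filled points for Drp1-mut, 2 for Marf-mut and 5 for Opa1-mut, and all 3 panels share the old Cas9 libraries.

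In old Drp1-mut against old Cas9, 0 of 30 genes passed (0.394% of all genes did), also without the shallow replicate 3, DESeq2 called 0 (0.326% of genes), and 5 had an unadjusted p under 0.05 (7.52% of all genes were). DIP-epsilon had 23.6, 42.6 and 32.9 CPM in old Drp1-mut and 60.7, 44.9 and 73.6 CPM in old Cas9, values that did not overlap, with a log2 fold change of -0.87 and an adjusted p of 0.264. DIP-theta had 63.5, 70.9 and 90.9 CPM in old Drp1-mut and 49.6, 44.9 and 61.7 CPM in old Cas9 (0.53, adjusted p = 0.505). DIP-zeta had 20.9, 8.51 and 0 CPM in old Drp1-mut, with 0 UMIs in the shallow replicate 3, where a count of 0 allows a level of up to 4.70 CPM from counting error alone. In old Cas9 DIP-zeta had 21.3, 29.7 and 61.7 CPM.

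In young flies no dpr or DIP gene passed in any mutant against Cas9, with 32 tested each time. The background was 0.0831% of genes for Drp1-mut, 0.346% for Marf-mut and 2.94% for Opa1-mut, and DESeq2 also called 0 members in each, against 0.196%, 0.888% and 4.25% of genes. For Drp1-mut the count was 0 without replicate 3 of young Drp1-mut as well. At an unadjusted p under 0.05 there were 2 genes for Drp1-mut, 4 for Marf-mut and 7 for Opa1-mut, against 4.94%, 9.75% and 18.1% of all genes. The nearest in Opa1-mut was dpr20, with 47.5, 47.3 and 45.5 CPM in young Opa1-mut and 70.0, 60.6 and 75.6 CPM in young Cas9 (log2 fold change -0.53, adjusted p = 0.0675). These dpr20 libraries did not overlap.

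Whether a mutant effect differed between ages was tested as an interaction. Here 0 of 32 genes passed for Drp1-mut (0% of all genes), Marf-mut (0.284%) and Opa1-mut (5.63%). At an unadjusted p under 0.05 there were 2, 4 and 2 genes, against 3.58%, 10.3% and 20.4% of all genes, and DESeq2 called 0 in each, against 0.0216%, 1.15% and 7.51%. The Drp1-mut count was 0 also without replicate 3 of old or of young Drp1-mut. For dpr10, called for Opa1-mut in old flies, the interaction was 0.55 with an adjusted p of 0.164. On counts summed per suspension, with both ages in 1 fit and 3 residual degrees of freedom, 0 of 32 genes passed for Drp1-mut (0.138% of all genes), Marf-mut (0.103%) and Opa1-mut (0.609%), with 5, 3 and 9 genes at an unadjusted p under 0.05 (4.72%, 6.51% and 12% of all genes). DESeq2 again called 0 in each, against 0.205%, 0.504% and 0.952% of genes. In that fit dpr20 had a log2 fold change of -0.57 for Opa1-mut (adjusted p = 0.133) and DIP-zeta of -1.08 for Drp1-mut (adjusted p = 0.299).

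The genes also differed in how much they varied between pools of a single suspension. The spread was measured as the chi-square of the counts within groups per degree of freedom, over 16 degrees of freedom, where 1 is the spread that counting alone gives. DIP-lambda reached 9.47, and genes with 0.5 to 2 times its UMI total had a median of 1.77. DIP-epsilon reached 7.79 (median of similar genes 1.97) and DIP-zeta 7.76 (1.79), so that 98%, 97.1% and 97.4% of the similar genes varied less. Without old Drp1-mut replicate 3 the spreads of DIP-lambda, DIP-epsilon and DIP-zeta were 8.60, 8.31 and 7.50, and without young Drp1-mut replicate 3 they were 8.78, 8.08 and 8.25. An example is DIP-lambda in young Marf-mut, with 23.1, 11.5 and 41.5 CPM in the 3 pools. Of the called genes, DIP-beta had a spread of 5.69 (median of similar genes 2.19) and DIP-eta of 2.99 (1.62), and 92.5% and 87.3% of the similar genes varied less. Without old Drp1-mut replicate 3 the spreads of DIP-beta and DIP-eta were 6.04 and 3.19, and without young Drp1-mut replicate 3 they were 4.27 and 2.52.

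At the other end, dpr15 had a spread of 0.472, dpr5 of 0.978 and dpr19 of 0.998, no more than counting error. dpr12 and dpr7 had 1.62 and 1.89, below the medians of similar genes. In old Drp1-mut against old Cas9, DIP-zeta and DIP-lambda had the largest standard errors of the genes tested.

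**Figure D5:**
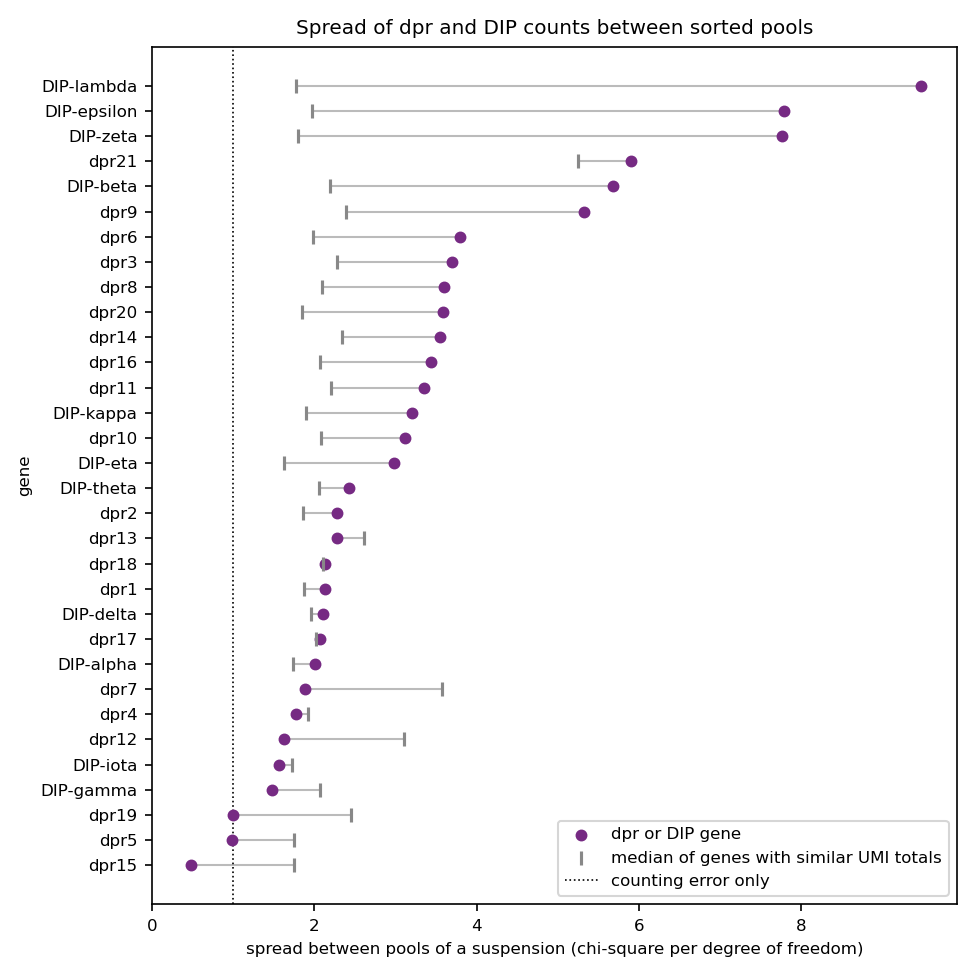
Spread of the counts of each dpr and DIP gene between pools of the same suspension (points; chi-square per degree of freedom, horizontal axis) beside the median of genes with similar UMI totals (ticks), with a dotted line at the spread from counting alone. DIP-lambda, DIP-epsilon and DIP-zeta stand farthest right, at 9.47, 7.79 and 7.76, and dpr15 lies left of the line at 0.472.

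The beat and side genes, another family of paired surface proteins that act in axon guidance, were counted beside the dpr and DIP genes. Of 21 tested, 3 were lower in old Opa1-mut than in old Cas9 (beat-IIIb, -1.0, side-II, -0.72, and side-VI, -0.46), 14.3%, near the 13.2% of all genes. One was higher in young Opa1-mut than in young Cas9 (side-V, 1.08, where 2.94% of all genes passed), and 0 passed in the other mutant comparisons between 2 groups. Between ages, side-III (-0.94) and side-V (-0.77) were lower in old Opa1-mut, 9.52% against 12.4% of all genes. The gene beat-VII was higher in old Drp1-mut (0.87) and in old Cas9 (0.62), where 0.705% and 2.45% of all genes passed. In the Opa1-mut interaction side-III passed (-0.81, adjusted p = 0.0476), where 0 dpr or DIP genes and 5.63% of all genes did.

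Of 45 other surface recognition and adhesion genes tested in old Opa1-mut against old Cas9, Nlg2 and Dscam2 were lower, 4.44% against the 13.2% of all genes. Between ages 6 of 46 passed in Opa1-mut, 13%, near the 12.4% of all genes, with Nrg (0.46) higher and klg, Toll-7, robo2, Nrx-1 and robo3 lower (-0.91 to -0.31). Dscam4 was lower in old Marf-mut (-0.51) and tutl higher in old Cas9 (0.52) than in the young, where 3.39% and 2.45% of all genes passed. Both tutl and Nlg2 passed in the Opa1-mut interaction (-0.60 and -0.52), where 5.63% of all genes did. In the age test on suspensions 3.55% of all genes passed. There 0 beat or side genes passed, against 4 of 32 dpr or DIP genes, of which only DIP-theta passed in every fit that left out a suspension. Nrg, the neuroglian adhesion protein, was the 1 of 46 other surface genes that passed (0.38, adjusted p = 0.0444). The lists were compared by these counts only.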

How the data were processed

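The deposited table holds counts, whole UMIs per gene and library, from Smart-seq3 cDNA tagged at the 5′ end per the labels' protocols. Per the submitters' processing notes, STAR and the dm6 build were used by the authors. Which version, annotation, UMI counter and strand setting were chosen was not given in the sources, so reads of overlapping genes are uncertain. The authors also deposited 6 DESeq2 tables, whose log2 fold changes, p-values and adjusted p-values are read per the file headers and whose baseMean, standard error and Wald columns were taken as a score each.

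Counts were tested in R 4.3.3 with edgeR 4.0.16 (TMM scaling, filterByExpr, robust glmQLFit and glmQLFTest, Benjamini-Hochberg adjustment over all genes tested, threshold 0.05). Adjusted p-values of the report are from this quasi-likelihood test, except where DESeq2 or the authors' deposited tables are named. Standard errors were taken as the absolute log2 fold change over the square root of F. Each comparison of 2 groups used its 6 libraries, each interaction 12 libraries, and the suspension fits 8 sums of 3 libraries. Mutants are given against Cas9 and old against young. DESeq2 1.42.0 was an alternative, with other scalings, no filter, a replicate block, 1 fit of all 24 libraries, log2 depth as a covariate and the omission of each library. The steps were tested on simulated data.

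Positions are those of the dm6 annotation (BDGP6, Ensembl), in which all 32 symbols matched. Replicate numbers did not pair the libraries: in no comparison did all 3 same-numbered pairs correlate above 0.1. The members, marker lists and other gene lists were chosen with earlier results of these data known. Genes described in full were those called in any test, the 6 of highest mean level and the established partner pairs.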

Additional observations from a re-analysis of the deposited data

How the results depend on the processing

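All 19 called values kept their direction under every alternative run, but many calls did not hold. The numbers below are members called. In old Marf-mut against old Cas9 the number called, 2, was 1 with total count scaling, with DESeq2 and when all 24 libraries shared a fit, dpr12 each time, 4 without a filter, and 1 with log2 depth as a term, where neither dpr12 nor dpr17 passed and the 1 was DIP-zeta, higher. In old Opa1-mut against old Cas9 the number called, 5, was 2 with total count scaling, 1 with DESeq2, 3 in the shared fit and 0 with log2 depth. Between ages, the number in Marf-mut, 1, was 0 with total count scaling, 3 without a filter, 0 with DESeq2, 2 in the shared fit and 4 with log2 depth, the number in Opa1-mut, 6, was 3 with log2 depth, and that in Cas9, 1, was 4 with total count scaling, 4 without a filter, 0 with DESeq2, 0 in the shared fit and 0 with log2 depth. Without a filter the 0 calls became 2 in young Opa1-mut, 2 in old Drp1-mut, 3 between ages in Drp1-mut and 2 for Drp1-mut over suspensions. For most of these settings, and for the omissions below, the share of all genes called is not given. Whether the numbers follow a change over all genes therefore cannot be read from them. The cause of the changes was not tested.

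With the replicate block, calls in old Marf-mut fell to 1 and those between ages in Cas9 numbered 3. Leaving out 1 library at a time gave 0 to 1 calls in young Opa1-mut, 0 to 4 in old Marf-mut, 2 to 6 in old Opa1-mut, and between ages 0 to 2 in Marf-mut, 3 to 7 in Opa1-mut and 0 to 1 in Cas9. In the age test over suspensions, leaving out 1 suspension, or 1 Drp1-mut library of its sum (chosen after the data had been seen), gave 1 to 3 calls. Of values that had not passed, dpr6 in old Marf-mut (-0.39) became 0.10 and dpr11 in old Opa1-mut (-0.50) became 0.12 with log2 depth. Over all genes, log2 depth lowered the calls in old Opa1-mut to 202, against 939 without it. Each combination of age and genotype was sampled as 1 suspension, so differences between suspensions and the effects of a genotype within an age cannot be told apart. The same holds for the effect of age within a genotype. Whether old and young suspensions were prepared on the same days is not given in the sources. Counts of a few UMIs limited DIP-alpha and DIP-iota, which were not tested in 6 and 4 of the 10 comparisons.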
